A study of Mus musculus with 16 samples.

Results

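The replication-dependent histone genes were examined in splenic B cells of NOD.LT mice, a line of the non-obese diabetic mouse. Members were the rows of the count table whose gene name starts with Hist1h, Hist2h, Hist3h or Hist4h, which gave 70 of 39179 genes: 6 of class H1, 20 of H2A, 19 of H2B, 12 of H3 and 13 of H4. The mice were 15 weeks old and had been on 1 of 4 diets for the last 5 weeks. The labels call the control diet NP and, in the text on treatment, apparently the same diet Gordons. HAMS stands for high-amylose maize starch, HAMSA for its acetylated form and HAMSB for its butyrylated form, so these 3 diets share the starch and differ in the attached acid. Each diet had 4 libraries of poly(A)-selected, stranded RNA, named here by diet and label number. No label ties a number to an animal, so a p-value here reflects only how far libraries of a diet differ, which may be technical. The B cells came from a magnetic negative selection, so cells that the antibodies miss stay in the libraries, and in bulk RNA fewer cells of a type and less RNA per cell cannot be told apart.

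Replication-dependent histones supply the nucleosome proteins that package newly copied DNA, and their genes are switched on in S phase. H2A, H2B, H3 and H4 form the core around which DNA is wound, and H1 binds the linker DNA between cores. Most messages of these genes do not end in a poly(A) tail: they are cut just after a conserved stem-loop, which the stem-loop binding protein Slbp holds. A library made by poly(A) selection therefore leaves out most of that message and keeps the transcripts that run on to a polyadenylation site, which are known from resting and differentiated cells. Levels below are counts-per-million values (CPM), with library sizes scaled by TMM, and the counts of a library are those of its polyadenylated histone RNA and of whatever else the selection let through.

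The annotated ends of the members were read from GENCODE M21 transcripts (build GRCm38), in which 63 of the 70 identifiers were found. A match to the histone stem-loop, with at most 1 mismatch over 16 bases, was present in 41 of the 63. Only 1 of the 41, Hist1h4a, had a mismatch. Counted by transcript and not by gene, a match was present in 1.04% of all 58797 protein-coding transcripts, histones included. With 0 mismatches it was present in 0.107% of them. The letters differed by class: 23 members of H1, H2A, H2B and H3 carried one form and 7 of H4 another, and no H4 member carried the form of the 23. The stem-loop sites of the most abundant member of H1, H2A members Hist3h2a and Hist2h2ac, and of 2 abundant H4 members are shown because their transcripts end at very different distances from it. Capitals mark the stem-loop and flanks are in lower case, in the sense of the transcript.
Hist1h1c: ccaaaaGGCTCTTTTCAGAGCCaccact
Hist3h2a: accaaaGGCTCTTTTCAGAGCCacccac
Hist2h2ac: caaaaaGGCTCTTTTTAGAGCCaccaaa
Hist1h4i: cttaaaGGCCCTTTTTAGGGCCaccaca
Hist2h4: cctaacGGCCCTTTTTAGGGCCaaccac

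The sites lie at chr13:23739512-23739527 (plus strand), chr11:58955172-58955187 (plus), chr3:96220418-96220433 (minus), chr13:22040966-22040981 (minus) and chr3:96262939-96262954 (minus), in that order, all in the 3′ UTR. The annotated Hist2h2ac transcript stops 57 bases after its stem-loop. Those of Hist1h4i, Hist1h1c, Hist2h4 and Hist3h2a run on for 330, 840, 1257 and 1643 bases and hold a poly(A) signal near the end. These signals are shown next, with AATAAA or ATTAAA in capitals, beside that of Hist2h2be, an H2B gene with a long 3′ UTR and no stem-loop match.
Hist1h4i: ttctgtttacATTAAAagtattctat
Hist1h1c: gtatgcttctAATAAAaagcgtttag
Hist2h4: gtatacataaAATAAAatcttaaaaa
Hist3h2a: gtatatgcccAATAAAataagagtac
Hist2h2be: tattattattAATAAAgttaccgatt

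Either signal was present in the last 50 bases of a transcript of 17 of the 63 members, 15 of them with a 3′ UTR longer than 150 bases. It was present in 50.2% of protein-coding transcripts, again counted by transcript and not by gene. By annotated end, 24 members had such a long 3′ UTR, 25 a shorter one, 10 no UTR in the annotation and 4 no coding transcript. This sorting was made after the levels had been seen, and it is a description with no test. The long group had a median of 0.575 CPM per member (mean over 16 libraries) and 7 of its 24 members above 1 CPM. The short group had a median of 0.104 CPM with 1 of 25 above 1 CPM, and the coding-only group had a median of 0.129 CPM with none of 10 above 1 CPM. Per kilobase of annotated exon, the medians were 0.348, 0.21 and 0.306 CPM, so that the gap between the groups was smaller once length was counted. The groups also differed in how much of a transcript can be counted: the median share of 75-base windows present in transcripts of other genes was 22.1%, 65.5% and 65.2%, and its part in the levels was not tested. Sorted by signal, the 17 members with a signal had a median of 0.462 CPM and 6 members above 1 CPM. The 46 members without a signal had a median of 0.153 CPM and 4 above 1 CPM. Per kilobase of exon these medians were 0.239 and 0.266 CPM. The plot by annotated end shows the spread inside each group of ends.

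**Figure D1:**
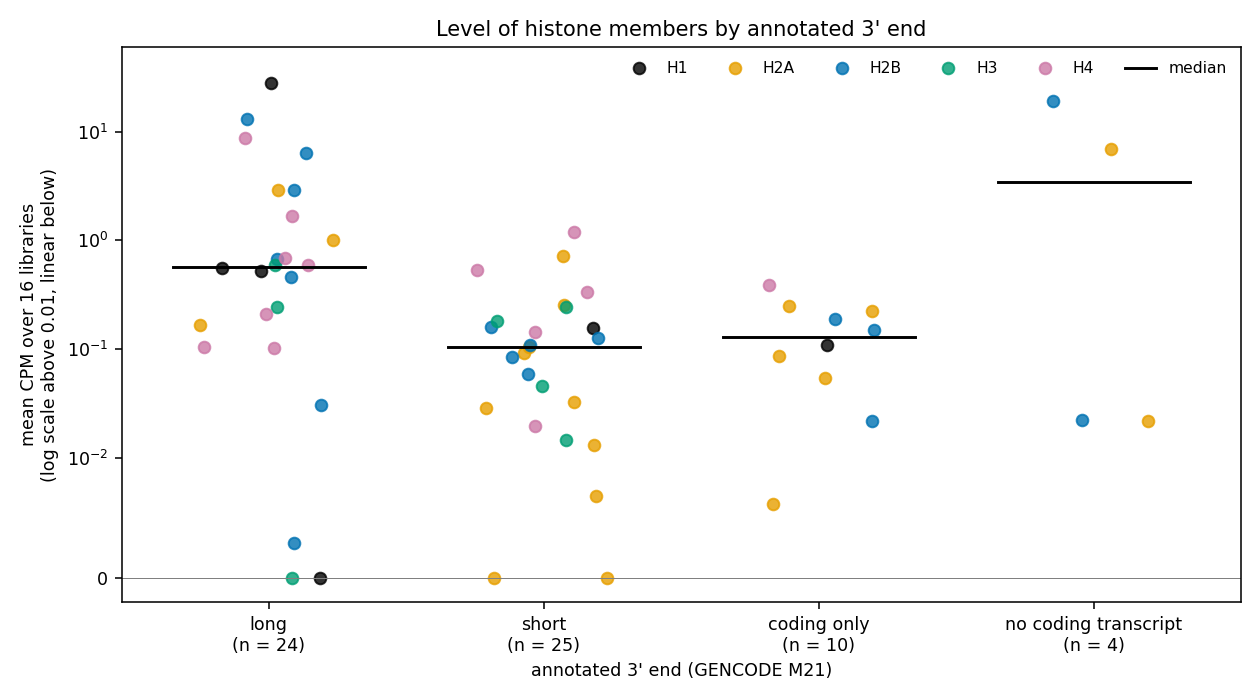
Mean CPM over 16 libraries of the 63 members found in GENCODE M21 (y axis, log scale above 0.01 CPM, linear below), by annotated 3′ end (x axis), coloured by class, with the group median as a black line. The members of the long group reach 28.2 CPM, those of the short group 1.21 CPM, and 4 members sit at 0.

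Histone members took between 0.00795% and 0.0133% of a library's counts. They summed to 103 CPM on average, of which 8 members held 85.8%. Only 10 members averaged above 1 CPM, 25 averaged below 0.1 CPM, and 32 had fewer than 10 counts in every library. Hist1h1t, Hist2h2aa1, Hist2h3c1 and Hist1h2ao had 0 counts in every library. For Hist1h1t, which shares no 75-base window with other transcripts, this allows 3 counts or 0.0647 to 0.2 CPM in a single library (counting error only). The other 3 share 100%, 100% and 93.1% of such windows, and reads that map to several places were not counted, so their 0 sets no limit on their level. Hist1h1t, the testis H1, and Hist1h2aa and Hist1h2ba, a testis-type pair, were at or near 0, with means of 0, 0.00614 and 0.0216 CPM.

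Class sums were uneven. H2B gave 42.8% of the histone CPM, H1 28.7%, H4 14.4%, H2A 12.5% and H3 1.68%. In each class 1 member led: Hist1h1c gave 95.4% of H1, Hist1h4i 59.5% of H4, Hist1h2al 53.6% of H2A, the row named Hist2h2bb 43.4% of H2B and Hist2h3c2 33.9% of H3. Per kilobase of exon the order was Hist1h2al (20.4 CPM per kb), Hist1h1c (18.1), Hist2h2bb (12.7), Hist1h4i (12.1), Hist1h2bc (5.57) and Hist2h2be (4.98). The polyadenylated replacement histones H3f3b and H3f3a, which are made outside S phase too, stood at 157 and 93.9 CPM per kb.

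Some rows need care. The identifier of the row named Hist2h2bb belongs in GENCODE M21 to the lincRNA Gm42743 (chr3:96269721-96279001, plus strand), which overlaps the coding gene Hist2h2bb. Hist1h2al is a processed pseudogene there (chr13:51202727-51203065, minus strand), away from the main cluster, and 45.7% of its windows of 75 bases were also present in transcripts of other genes. In 29 of the 63 members at least 50% of such windows were shared, and reads that map to several places are not in the counts. Hist2h2be shared 0% and Hist1h1c 6.66%. The gene spans of 7 members, introns included, are overlapped by another gene on the same strand, Hist1h2be and Hist1h1e by each other and Hist3h2a by Trim17. Reads on exons of both genes are left unassigned, and how far the exons overlap was not examined.

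H2A and H2B genes often lie head to head. M21 places 13 such pairs with start sites at most 500 bases apart. Hist2h2ac and Hist2h2be start 239 bases apart on chr3 and Hist1h2ac and Hist1h2bc 251 bases apart on chr13, and in both the H2B gene had the higher level per length. Over the 13 pairs the H2B gene was the higher in 8 and the H2A gene in 5, among them Hist3h2a with 1.36 CPM per kb against 0.048 for its pseudogene partner Hist3h2bb-ps. Some pairs rest on few reads: Hist1h2ao and Hist1h2bq had 0 and 16 counts in all, and Hist1h2ap and Hist1h2br 6 and 2. Of the 75-base windows of Hist1h2ao and Hist1h2bq, 93.1% and 96.1% were shared with other genes. The part of shared windows and low counts in this tally was not tested. Hist2h2be had 4.98 CPM per kb against 1.38 for Hist2h2ac, and Hist1h2bc 5.57 against 0.402 for Hist1h2ac. The promoters of the H2A genes hold most of the shared stretch and are shown for that reason, from RefSeq (GRCm38.p6). The first is chr3:96220831-96221130 and the second chr13:23683910-23684209, both minus strand, from 250 bases before the start to 50 after. Capitals mark the TATA box as TATAAA, the CCAAT box and the octamer element, whose letters are ATTTGCAT, each on either strand.
Hist2h2ac: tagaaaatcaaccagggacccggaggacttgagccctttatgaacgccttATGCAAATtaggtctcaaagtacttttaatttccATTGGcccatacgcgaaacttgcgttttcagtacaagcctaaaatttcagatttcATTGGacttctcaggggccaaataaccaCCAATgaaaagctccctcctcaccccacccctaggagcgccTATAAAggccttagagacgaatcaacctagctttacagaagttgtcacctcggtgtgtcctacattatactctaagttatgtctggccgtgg
Hist1h2ac: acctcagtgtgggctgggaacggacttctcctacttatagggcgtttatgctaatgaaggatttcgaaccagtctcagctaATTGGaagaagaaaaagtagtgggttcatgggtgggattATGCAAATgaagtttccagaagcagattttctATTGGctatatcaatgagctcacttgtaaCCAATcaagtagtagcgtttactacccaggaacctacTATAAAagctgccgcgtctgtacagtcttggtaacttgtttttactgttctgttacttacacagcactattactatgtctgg

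Among 62 RefSeq promoters of 61 members, CCAAT on either strand was present in 85.5%, against 37.4% of all 32851 promoters of 300 bases. It was in all promoters of H1, H2A, H2B and H3 and in 3 of 12 of H4. TATAAA on either strand was present in 56.5% against 13.6%. Some of these matches lie only on the strand opposite to the gene, as in Hist1h2bn, and were not counted apart. The octamer was present in 22.6% against 1.74%, in 7 of 17 H2A and 7 of 17 H2B promoters and in none of the other classes. The motifs do not overlap in letters, and a match is a description of these letters only.

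Across diets, Hist1h1c, a somatic linker histone, was the member with the most reads and the least spread (14.8% over the 16 libraries). It lies at chr13:23738808-23740367 (plus strand). Its CPM were 27.4, 28.4, 27.8 and 22.9 in NP libraries 1, 3, 4 and 5, and 28.5, 35.7, 32.0 and 29.1 in HAMS libraries 1, 4, 5 and 6. They were 32.6, 35.8, 28.3 and 28.2 in HAMSA libraries 1, 2, 3 and 6, and 21.8, 25.6, 22.6 and 25.4 in HAMSB libraries 1, 2, 5 and 6. Every HAMSB library lay below every HAMS and HAMSA library, and every HAMS library lay above every NP library. The log2 fold change was -0.39 (SE 0.11) for HAMSB against HAMS and 0.39 (SE 0.11) for HAMSA against HAMSB. Neither passed edgeR's quasi-likelihood test after Benjamini-Hochberg adjustment over 15021 genes (adjusted p = 0.0899 and 0.106), whereas DESeq2 gave adjusted p = 0.0143 and 0.0231. The other H1 members tested, Hist1h1e and Hist1h1d, averaged 0.562 and 0.524 CPM. Hist1h1e was at 0.247 to 0.379 CPM in NP libraries and 0.475 to 0.561 in HAMSB libraries, which do not overlap, and reached 1.5 CPM in HAMSA library 2.

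Hist2h2be, an H2B gene of the cluster on chr3 (chr3:96221119-96223738, plus strand), was lower in all HAMSA libraries than in all NP and HAMSB libraries. Its CPM were 8.26, 9.3, 8.06 and 11.8 in HAMSA libraries 1, 2, 3 and 6. They were 12.8, 13.9, 17.3 and 14.7 in HAMSB libraries 1, 2, 5 and 6, 11.4, 13.1, 18.2 and 15.0 in HAMS libraries 1, 4, 5 and 6, and 13.7, 12.3, 12.2 and 16.8 in NP libraries 1, 3, 4 and 5. HAMSA library 6, the highest of its diet, lay inside the HAMS range. The log2 fold change was -0.65 (SE 0.17, adjusted p = 0.0868 by edgeR) against HAMSB, -0.62 (SE 0.17, adjusted p = 0.3) against HAMS and -0.56 (SE 0.17, adjusted p = 0.081) against NP. Without HAMSA library 6 the change was -0.78 against HAMSB and -0.69 against NP, and both passed (adjusted p = 0.044 and 0.0443). DESeq2 called both with all libraries. When the fit also held each library's percentage of reads outside exons, which was lower in HAMSA than in HAMSB and NP, the changes were -0.38 against HAMSB, -0.41 against HAMS and -0.29 against NP (adjusted p = 0.716, 0.609 and 0.63 by edgeR).

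The other leading H2B rows moved less evenly. The Hist2h2bb row had 13.4, 12.3, 12.9 and 22.3 CPM in HAMSA libraries 1, 2, 3 and 6 and 15.5, 23.9, 32.0 and 27.3 in HAMS libraries 1, 4, 5 and 6. The ranges overlap because HAMSA library 6 and HAMS library 1 cross. NP libraries lay between 16.7 and 21 CPM and HAMSB libraries between 13.5 and 22.3 CPM. Its log2 fold change for HAMSA against HAMS was -0.70 (SE 0.24, adjusted p = 0.321 by edgeR). Platelet markers, described with the other cell types, were highest and lowest in some of the same libraries but not in others, and their part in the result was not tested. Hist1h2bc, whose coding part is spliced to a distant end without a stem-loop match, had 7.95, 7.01, 7.34 and 4.15 CPM in NP libraries 1, 3, 4 and 5 and 3.82, 4.77, 3.56 and 8.03 in HAMSB libraries 1, 2, 5 and 6. HAMS libraries had 5.31 to 11.2 CPM and HAMSA libraries 4.18 to 8.01 CPM, so all 4 diets overlapped.

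Hist1h4i led the H4 class (chr13:22040636-22041362, minus strand). Its CPM were 8.93, 14.1, 12.5 and 11.9 in HAMS libraries 1, 4, 5 and 6 and 4.83, 5.54, 3.98 and 8.96 in HAMSB libraries 1, 2, 5 and 6. NP libraries 1, 3, 4 and 5 had 12.1, 8.27, 10.1 and 5.13 CPM, and HAMSA libraries 1, 2, 3 and 6 had 6.14, 7.51, 8.72 and 12.5 CPM. HAMSB library 6, just above HAMS library 1, was the only one of its diet to reach the HAMS range. The log2 fold change for HAMSB against HAMS was -1.02 (SE 0.29, adjusted p = 0.103 by edgeR, 0.0171 by DESeq2). Without HAMSB library 6 it was -1.31 and passed edgeR (adjusted p = 0.0454). Hist2h4 and Hist1h4n, next in the class, averaged 1.68 and 1.21 CPM. Hist2h4 ranged from 0.533 CPM in HAMSA library 3 to 3.21 CPM in HAMS library 5.

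**Figure D2:**
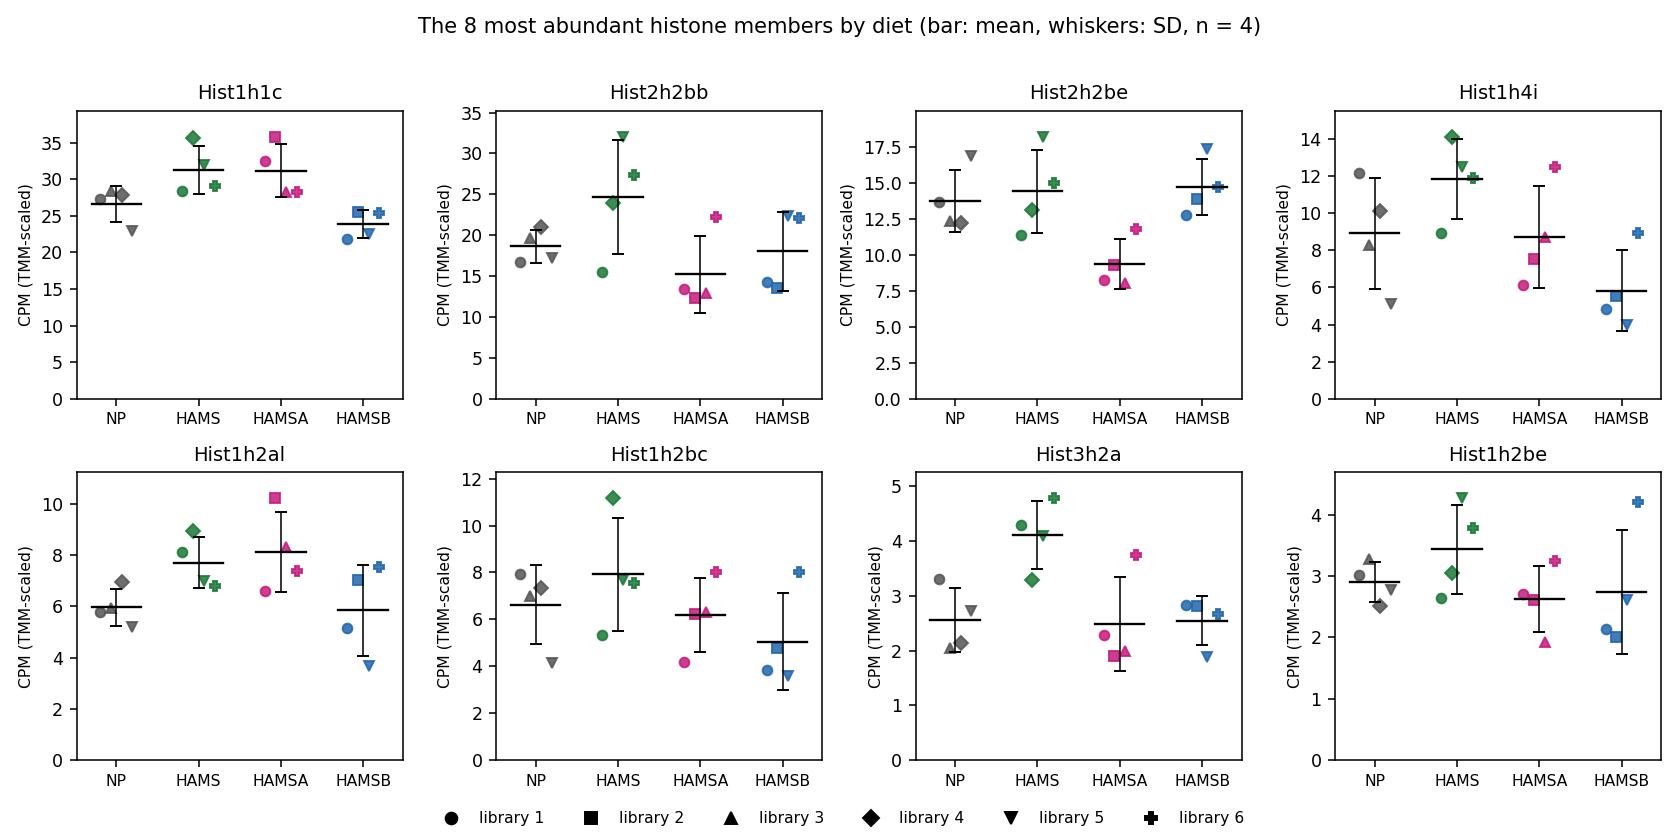
CPM (y axis) of the 8 members with the most reads in each library, by diet (x axis). Marker shapes give the label number, the bar the mean and the whiskers the SD of 4 libraries. HAMSB libraries of Hist1h1c (21.8 to 25.6 CPM) sit below those of HAMS and HAMSA, and HAMSA libraries of Hist2h2be (8.06 to 11.8 CPM) below those of NP and HAMSB.

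Among H2A genes, Hist3h2a had 4.29, 3.3, 4.09 and 4.78 CPM in HAMS libraries 1, 4, 5 and 6 and 3.31, 2.05, 2.14 and 2.73 in NP libraries 1, 3, 4 and 5. The ranges met at 3.3 CPM, HAMS library 4 just below NP library 1. The log2 fold change for HAMS against NP was 0.69 (SE 0.24, adjusted p = 0.119 by edgeR, 0.0342 by DESeq2). Hist2h2ac, the partner of Hist2h2be whose transcript ends shortly after the stem-loop, had 1.11, 1.2, 1.08 and 1.68 CPM in HAMS libraries 1, 4, 5 and 6. Its CPM were 0.399, 0.938, 0.487 and 0.163 in NP libraries 1, 3, 4 and 5, 0.707, 0.751, 0.533 and 0.572 in HAMSA libraries 1, 2, 3 and 6, and 0.178, 0.484, 0.421 and 0.777 in HAMSB libraries 1, 2, 5 and 6. All HAMS libraries lay above all libraries of the other 3 diets. The log2 fold change was 1.34 (SE 0.44, adjusted p = 0.103 by edgeR, 0.0444 by DESeq2 and 0.0479 by limma voom) against NP. For HAMSB against HAMS it was -1.43 (SE 0.44, adjusted p = 0.14 by edgeR and 0.0469 by DESeq2). These values rest on 7 to 52 counts in a library.

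Hist1h2al, the H2A row with the most reads, averaged 5.96 ± 0.73 CPM in NP, 7.71 ± 1.0 in HAMS, 8.13 ± 1.57 in HAMSA and 5.85 ± 1.77 in HAMSB (SD, n = 4). The ranges of all 4 diets overlapped. Hist1h2ac averaged 0.999 CPM. Hist1h2ai and Hist1h2ak, H2A genes with 109 and 118 counts in all, were also among the smallest p-values. Hist1h2ai had 0.19 to 0.431 CPM in HAMS libraries and 0.0614 to 0.148 in NP libraries, with a log2 fold change of 1.38 (SE 0.45, adjusted p = 0.103 by edgeR). For HAMSA against HAMSB it was 1.24 (SE 0.48, adjusted p = 0.199). Hist1h2ak had 0.254 to 0.809 CPM in HAMSA libraries and 0.0307 to 0.173 in NP libraries, with a log2 fold change of 1.56 (SE 0.51, adjusted p = 0.0951). Without HAMSA library 2 it was 1.02 (adjusted p = 0.34). These members lie near the level of 3 counts, which was 0.173 to 0.2 CPM in 3 HAMSA libraries.

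H3 was the class with the fewest reads. Hist2h3c2, Hist1h3e and Hist2h3b, its 3 leading members, averaged 0.589, 0.245 and 0.242 CPM over the 16 libraries. All windows of 75 bases in Hist2h3b were shared with other genes (100%), as were 62.6% of those in Hist2h3c2. The H3 sum was 1.14 ± 0.21 CPM in NP, 2.02 ± 0.21 in HAMS, 2.34 ± 0.32 in HAMSA and 1.45 ± 0.21 in HAMSB (SD, n = 4). Every HAMS and HAMSA library (1.78 to 2.27 and 1.86 to 2.53 CPM) lay above every NP and HAMSB library (0.951 to 1.43 and 1.15 to 1.63 CPM). The share of all genes that separate these diets in the same way was not counted.

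The sums of the other classes are given as descriptions. H1 summed to 27.5 ± 2.44 CPM in NP, 32.8 ± 2.84 in HAMS, 33.1 ± 4.61 in HAMSA and 25.1 ± 1.74 in HAMSB. H2A summed to 10.8 ± 1.19, 15.8 ± 0.54, 14.1 ± 2.32 and 10.9 ± 2.69 CPM, and H4 to 14 ± 2.95, 19.2 ± 2.8, 15.2 ± 4.24 and 10.9 ± 3.5 CPM, in the same order of diets (SD, n = 4). For H2A all HAMS libraries (15.0 to 16.3 CPM) lay above all NP libraries (9.26 to 11.9 CPM). H2B summed to 44.1 ± 1.08, 53.5 ± 11.5, 36.4 ± 8.1 and 42.6 ± 8.09 CPM, so that it was the class with its lowest mean in HAMSA. All members together summed to 97.4 ± 6.99 CPM in NP, 123 ± 15.1 in HAMS, 101 ± 13 in HAMSA and 90.9 ± 13.3 in HAMSB, and the HAMS range (102 to 137 CPM) overlapped that of each other diet.

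**Figure D3:**
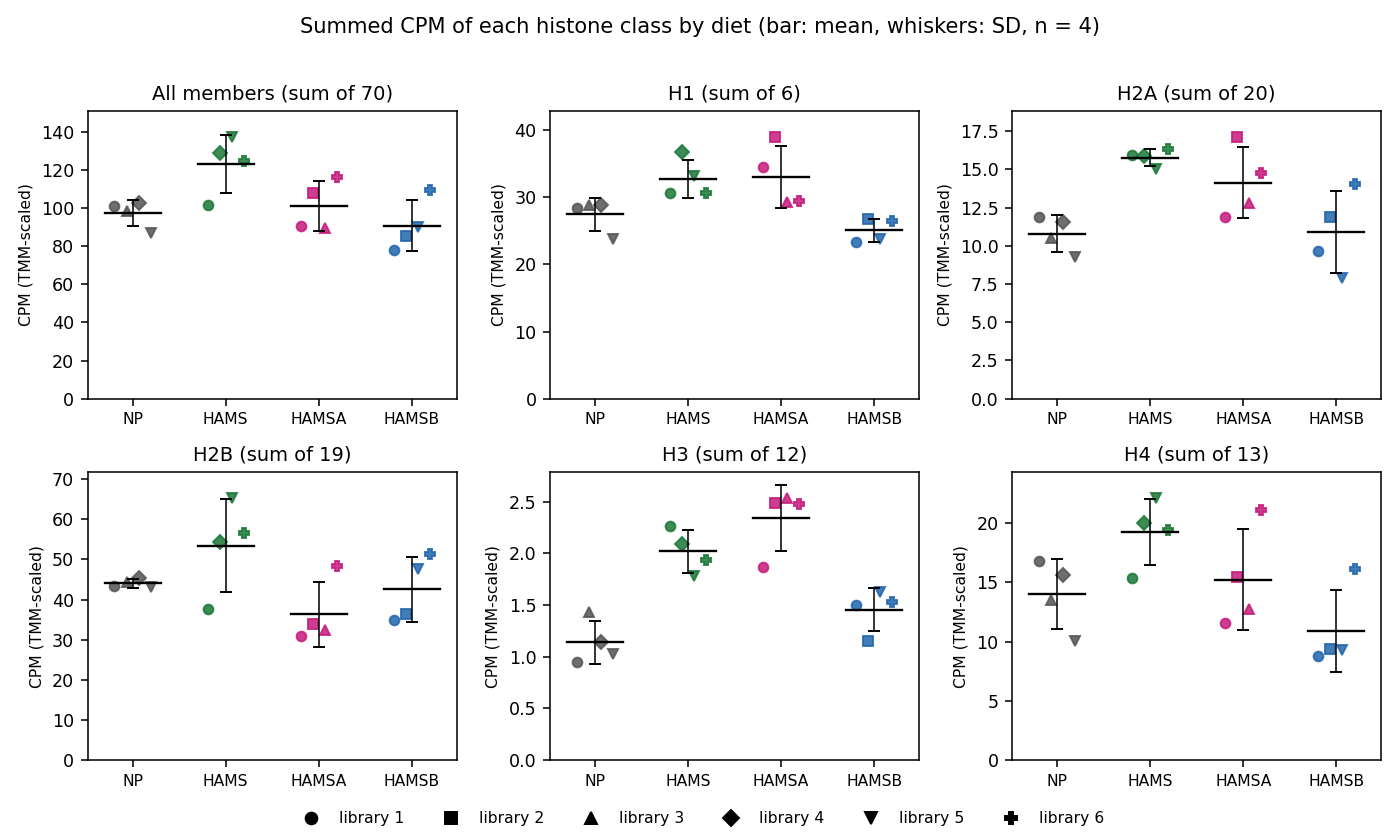
Summed CPM (y axis) of all 70 members and of each class in every library, by diet (x axis), with marker shapes for the label number, the mean as a bar and the SD of 4 libraries as whiskers. H3 separates HAMS and HAMSA (1.78 to 2.53 CPM) from NP and HAMSB (0.951 to 1.63 CPM), while H2B has its lowest mean in HAMSA (36.4 CPM).

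The gene test covered the 30 members that passed the filter on low counts: 3 of H1, 7 of H2A, 9 of H2B, 3 of H3 and 8 of H4. Which members pass depends on the diets in which they are high, so the 30 do not stand for the 70. For HAMS against NP, the comparison of the plain starch with the control diet, 0 of the 30 passed edgeR's quasi-likelihood test (lowest adjusted p = 0.103), where 4.33% of all genes did. DESeq2 called 2 (Hist2h2ac and Hist3h2a), where it called 8.42% of all genes (for DESeq2, here and below, those to which it gave an adjusted p), and limma voom 1 (Hist2h2ac), where it called 4.83% of all genes. At an unadjusted p below 0.05 there were 7, all higher in HAMS, against 19.3% of all genes, and 5 (Hist1h1c, Hist1h2ai, Hist1h4n, Hist2h2ac and Hist4h4) had all HAMS libraries above all NP libraries, against 6.06% of all genes. No member had all HAMS libraries below all NP libraries, against 6.55%. The fold change was positive for 30 of 30 members, and for 29 of 30 with library totals in place of TMM. Their median log2 fold change was 0.45, against 0.01 over all genes tested.

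For HAMSB against HAMS, the comparison of the butyrylated with the plain starch, 0 members passed edgeR (lowest adjusted p = 0.0899), where 1.68% of all genes did. DESeq2 called 3 (Hist1h1c, Hist1h4i and Hist2h2ac) and 4.27% of all genes, and limma voom 0 and 1.76%. At an unadjusted p below 0.05 there were 7, all lower in HAMSB, against 14.1% of all genes, and 4 (Hist1h1c, Hist2h2ac, Hist3h2a and Hist4h4) had all HAMSB libraries below all HAMS libraries, against 4.11%. No member lay above without overlap, against 3.19%. The fold change was negative for 29 of 30, and for 27 of 30 with library totals, with a median of -0.44 against 0.01 over all genes. This comparison and that of HAMS with NP share the HAMS libraries, so neither is evidence for the other. The comparisons of the starch diets with NP share the NP libraries in the same way.

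For HAMSA against HAMS, the comparison of the acetylated with the plain starch, 0 members passed edgeR (lowest adjusted p = 0.3), as did 0% of all genes, and DESeq2 and limma voom called 0 members too, with 0.686% and 0% of all genes. At an unadjusted p below 0.05 there were 4 (Hist2h2be, Hist3h2a, Hist2h2bb and Hist2h2ac), all lower in HAMSA, against 11.7% of all genes, and Hist2h2ac alone had all HAMSA libraries below all HAMS libraries (1.31% of all genes). No member lay above without overlap, against 2.7%. Hist3h2a had a log2 fold change of -0.73 (SE 0.24, adjusted p = 0.32). The median over the 30 was -0.05, with 7 of 9 H2B members negative (median -0.39) and 3 of 3 H3 members positive (median 0.18).

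The acids were compared directly in HAMSA against HAMSB. There 0 members passed edgeR (lowest adjusted p = 0.0868), where 0.779% of all genes did, while DESeq2 called 2 (Hist1h1c and Hist2h2be) and 5.08% of all genes, and limma voom 0 and 0.573%. At an unadjusted p below 0.05 there were 6, of which 5 were higher in HAMSA and Hist2h2be lower, against 19.4% of all genes. Hist1h1c and Hist1h2ak were higher in HAMSA without overlap, against 4.65% of all genes, and Hist2h2be was lower without overlap, against 4.16%. The fold change was positive for 22 of 30 (median 0.46), among them 3 of 3 of H1, 3 of 3 of H3 and 6 of 8 of H4, and 5 of 9 of H2B.

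In HAMSA against NP 0 members passed edgeR (lowest adjusted p = 0.081), where 1.41% of all genes did. DESeq2 called 2 (Hist1h1e and Hist2h2be) and 8.63% of all genes, and limma voom 0 and 0.553%. With edgeR 8 had an unadjusted p below 0.05 against 25.1% of all genes. Hist1h2ai, Hist1h2ak and Hist1h3e were higher in HAMSA without overlap, against 7.72% of all genes, and Hist2h2be was lower without overlap, against 8.67%. Hist1h1e had a log2 fold change of 1.42 (SE 0.45, adjusted p = 0.0899 by edgeR), which was 1.67 within label numbers 1 to 4 and -0.14 within numbers 5 and 6. Numbers 5 and 6 hold a single library of each of these diets, NP library 5 and HAMSA library 6. Without HAMSA library 2 the change of Hist1h1e was 0.97 (adjusted p = 0.302), and without HAMSA library 6 it was 1.70 and passed (adjusted p = 0.0422). In HAMSB against NP 0 members passed edgeR, DESeq2 or limma voom (lowest adjusted p by edgeR 0.731), where 0.0732% of all genes passed edgeR, 0.826% DESeq2 and 0.14% limma voom. In the same comparison 0 members had an unadjusted p below 0.05 by edgeR against 6.89%. Hist1h1e was higher in HAMSB without overlap, against 2.21% of all genes, and no member was lower without overlap, against 3.06%. The 3 smallest p-values belonged to Hist1h4i, with a log2 fold change of -0.61 (SE 0.29), Hist1h1e with 0.77 (SE 0.44) and Hist1h1c with -0.16 (SE 0.11). The test of any difference among the 4 diets called 0 members by edgeR (lowest adjusted p = 0.0833), where 3.78% of all genes passed, 4 by DESeq2 (Hist1h1c, Hist2h2ac, Hist2h2be and Hist3h2a), where 12.6% did, and 0 by limma voom, where 3.38% did. With edgeR 9 had an unadjusted p below 0.05, against 22% of all genes.

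**Figure D4:**
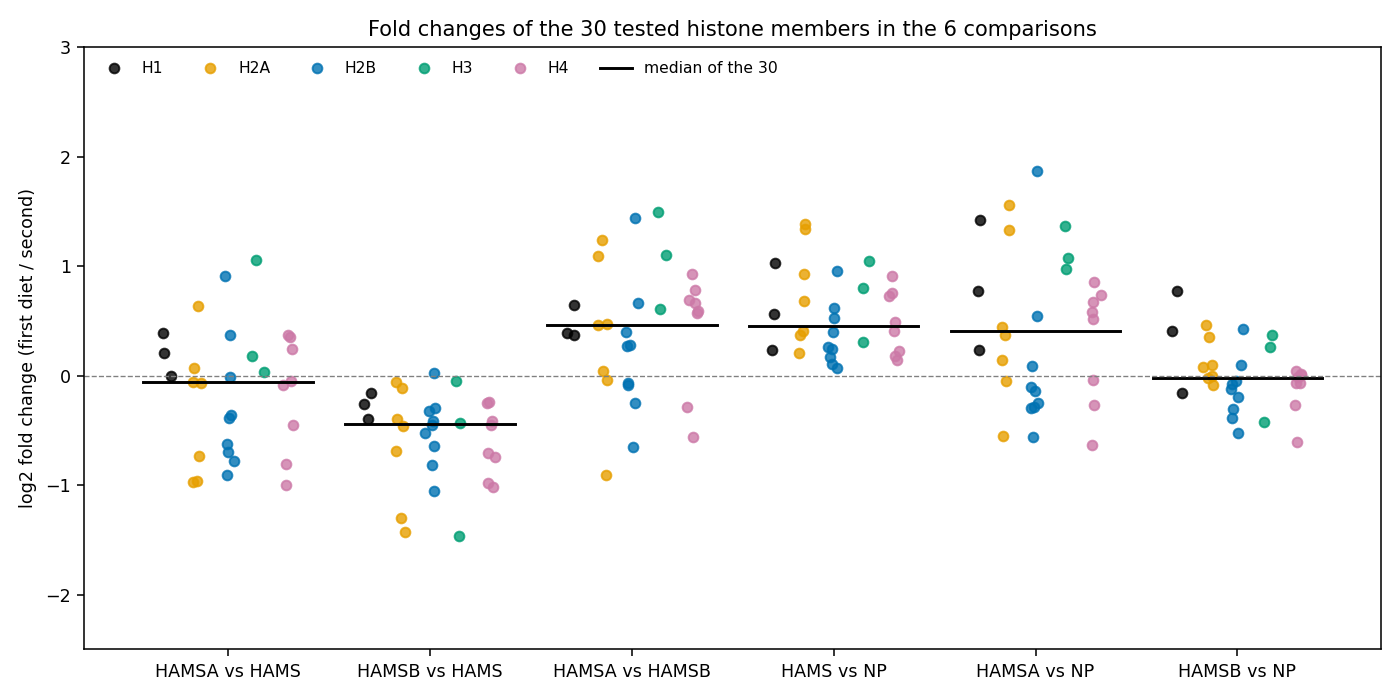
Log2 fold changes (y axis, first diet over second) of the 30 tested members in the 6 comparisons (x axis), coloured by class, with the median as a black line. All 30 points lie above 0 in HAMS against NP (median 0.45) and 29 of 30 below 0 in HAMSB against HAMS (median -0.44), and none of them passed edgeR's adjusted threshold.

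The members that vary from library to library were compared for shared patterns. Among the 8 members with the most reads, 28 pairs were correlated on log2 CPM over the 16 libraries with a permutation test of 100000 draws, and 4 pairs had a Benjamini-Hochberg adjusted p below 0.05 for Pearson's r. Hist1h4i and Hist1h2bc, an H4 and an H2B gene far apart on chr13, had r = 0.94 and Spearman's rho = 0.93, either with permutation p = 1e-05, the smallest these draws can give, and adjusted p = 0.00028. Without the 2 libraries farthest from the median of Hist1h4i, r was 0.90. It was 0.93 within numbers 1 to 4 (10 libraries), 0.96 within numbers 5 and 6 (6 libraries) and 0.94 after the mean of each diet was subtracted.

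The Hist2h2bb row and Hist1h2be had r = 0.79 (permutation p = 0.00012, adjusted p = 0.00168) and rho = 0.72 (permutation p = 0.00224, adjusted p = 0.0314). Hist1h1c and Hist1h2al had r = 0.76 (permutation p = 0.00051, adjusted p = 0.00476) and rho = 0.61 (permutation p = 0.0136, adjusted p = 0.0763). The Hist2h2bb row and Hist2h2be had r = 0.69 (permutation p = 0.00324, adjusted p = 0.0227) and rho = 0.68 (permutation p = 0.00457, adjusted p = 0.0427). Without the 2 farthest libraries r was 0.76, 0.67 and 0.56, and after the diet means were subtracted it was 0.74, 0.56 and 0.70. Within numbers 1 to 4 it was 0.62, 0.75 and 0.56, and within numbers 5 and 6 it was 0.68, 0.73 and 0.19, so the last pair did not hold in the smaller set.

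Slbp, which binds the stem-loop, was the gene of histone message processing that changed with diet. It belongs to a list of 28 symbols (25 in the table, all tested). Its comparisons with NP, like those of Cdt1, Nap1l1, Anp32e and Tk1 below, were chosen after its values were seen. Its CPM were 66.0, 68.0, 59.6 and 61.8 in NP libraries 1, 3, 4 and 5, 79.9, 82.4, 81.1 and 83.7 in HAMS libraries 1, 4, 5 and 6, 84.7, 95.0, 81.1 and 77.4 in HAMSA libraries 1, 2, 3 and 6, and 67.2, 74.6, 59.2 and 58.5 in HAMSB libraries 1, 2, 5 and 6. All HAMS and HAMSA libraries lay above all NP and HAMSB libraries. By pair of diets, such a gap was seen in 6.06% of all genes for HAMS above NP and 7.72% for HAMSA above NP. It was seen in 4.11% for HAMSB below HAMS and 4.65% for HAMSA above HAMSB. The share of all genes with the full split was not counted. Slbp rose in HAMS against NP by 0.36 (log2, SE 0.09, adjusted p = 0.0326 by edgeR) and in HAMSA against NP by 0.41 (SE 0.09, adjusted p = 0.0422). It did not pass for HAMSA against HAMSB (0.38, SE 0.09, adjusted p = 0.0604) or for HAMSB against HAMS (-0.33, SE 0.09, adjusted p = 0.0817). The 2 calls were lost under 10 and 13 of 19 other settings, with adjusted p up to 0.205 and 0.537, among them several with 1 library left out. No other gene of the list passed in any comparison. Among them Ncbp2, of the cap-binding complex, had -0.29 (SE 0.08, adjusted p = 0.0941) for HAMSB against HAMS, and Wdr33, of the poly(A) machinery, had 0.18 (SE 0.07, adjusted p = 0.376) for HAMSA against HAMS.

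**Figure D5:**
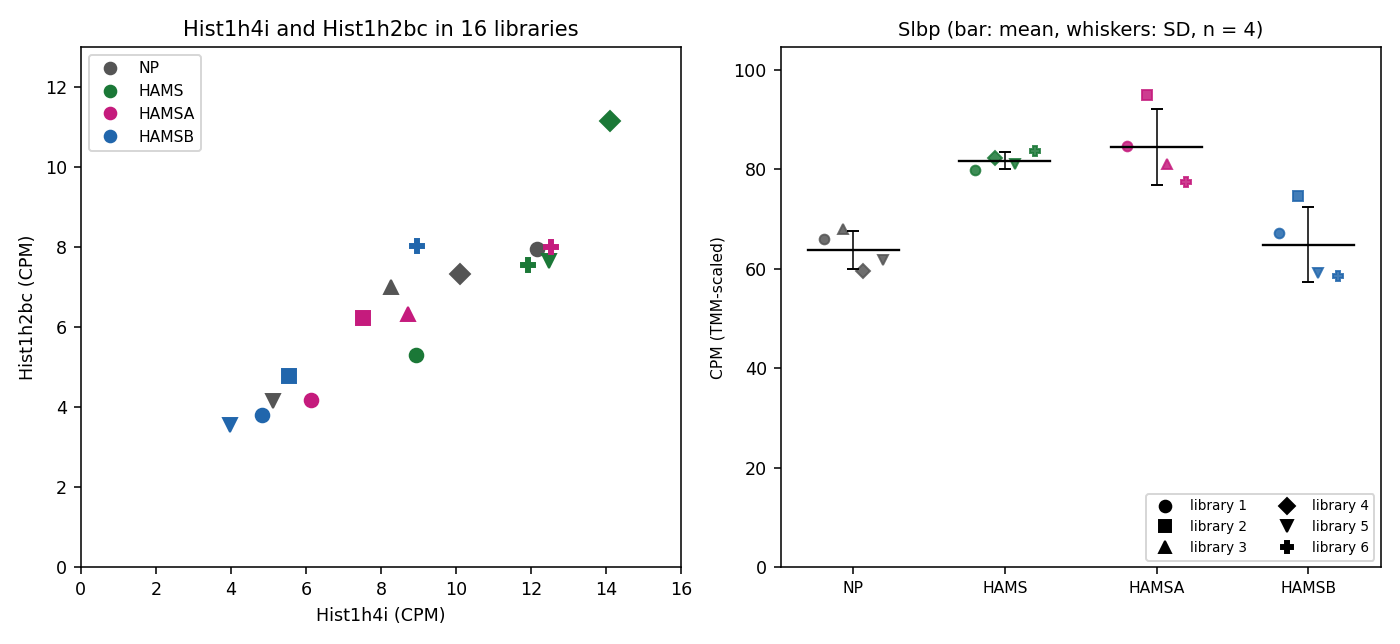
Left, CPM of Hist1h4i (x axis) and Hist1h2bc (y axis) in 16 libraries, coloured by diet and shaped by label number (r = 0.94). Right, CPM of Slbp (y axis) by diet (x axis), with the mean as a bar and the SD of 4 libraries as whiskers; HAMS and HAMSA libraries (77.4 to 95.0 CPM) sit above those of NP and HAMSB (58.5 to 74.6 CPM).

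Of the histone chaperones, which carry histones to and from DNA, Nap1l1 rose in HAMS against NP by 0.48 (log2, SE 0.10, adjusted p = 0.00983) and in HAMSA against NP by 0.44 (SE 0.10, adjusted p = 0.0395), and Anp32e, a chaperone that removes H2A.Z, rose in HAMS against NP by 0.31 (SE 0.08, adjusted p = 0.0373), all by edgeR. Of 19 other settings, 1 lost the Nap1l1 call in HAMS against NP, 11 that in HAMSA against NP (adjusted p up to 0.648) and 12 the Anp32e call (up to 0.244). The other 18 or 19 of 20 chaperones tested did not pass there, and none passed among the starch diets. For HAMSB against HAMS Nap1l1 had -0.32 (SE 0.09, adjusted p = 0.12) and Anp32e -0.30 (SE 0.08, adjusted p = 0.0714). Of the replacement and variant histones 0 of 11 tested passed in any comparison by edgeR. H2afj, H1fx and H2afx had the smallest p-values for HAMSA against HAMSB, with log2 fold changes of 0.69, 2.27 and 0.84 (adjusted p = 0.0716, 0.0766 and 0.084 by edgeR). Within numbers 5 and 6, where HAMSA had library 6 alone, the change of H1fx was -0.23.

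Genes of DNA replication were set beside the histones, and which cells of the libraries carry their RNA was not examined. Cdt1, a factor that licenses replication origins, rose in HAMS against NP by 0.69 (log2, SE 0.10, adjusted p = 0.00161) and in HAMSA against NP by 0.47 (SE 0.10, adjusted p = 0.0387), and fell in HAMSB against HAMS by 0.48 (SE 0.10, adjusted p = 0.0202), by edgeR. Tk1, the thymidine kinase of S phase, fell in HAMS against NP by 0.55 (SE 0.15, adjusted p = 0.0491). The 3 Cdt1 calls were lost under 1, 12 and 7 of 19 other settings (adjusted p up to 0.248, 0.518 and 0.415). The Tk1 call was lost under 12 of 19. Its change was -0.35 within numbers 1 to 4 and -0.92 within numbers 5 and 6, where NP had library 5 alone. No other of the 32 S phase genes passed in any comparison. The S phase list was positive in 30 of 32 members for HAMSA against HAMS (median 0.35) and the list of G2 and mitosis in 21 of 21 (median 0.89), against a histone median of -0.05 and a median of 0.00 over all genes. The S phase and histone medians were 0.49 and 0.41 for HAMSA against NP, 0.23 and 0.46 for HAMSA against HAMSB, 0.16 and -0.44 for HAMSB against HAMS and 0.07 and 0.45 for HAMS against NP. For HAMSB against NP they were 0.22 and -0.02. In these 5 comparisons, in the same order, the mitosis medians were 0.96, 0.47, 0.46, 0.09 and 0.44. No gene of the mitosis list passed edgeR in any comparison. The list sums ranged from 1067 to 1651 CPM (S phase) and 245 to 668 CPM (mitosis) in HAMSA libraries and from 939 to 1153 and 126 to 276 CPM in HAMS libraries.

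Markers of other cells varied between the diets too, though few passed edgeR outside the macrophage list. The 15 erythroid markers in the table summed to 657 to 6713 CPM in HAMSA libraries, 106 to 1791 in HAMSB, 120 to 205 in HAMS and 130 to 1596 in NP. By fold change 14 of the 14 tested were higher in HAMSA than in HAMS, and none passed edgeR in any comparison. The 10 neutrophil markers summed to 77.9 to 319 CPM in HAMSA libraries, 42.4 to 253 in HAMSB, 5.61 to 111 in HAMS and 8.75 to 63.3 in NP. The 10 T cell markers summed to 119 to 247 CPM in HAMSA libraries, 101 to 294 in HAMSB, 73.3 to 167 in HAMS and 78.3 to 116 in NP. Of the neutrophil and T cell lists 1 marker each passed edgeR, higher in HAMSA than in NP, and none in the other comparisons. The 9 macrophage markers summed to 160 to 311 CPM in NP libraries and 36.9 to 145 in the others, and 8 of 9 fell in HAMS against NP by edgeR. The 7 platelet markers summed to 367 to 761 CPM in HAMS libraries, 306 to 525 in HAMSA, 219 to 488 in HAMSB and 248 to 402 in NP. By fold change 7 of 7 were higher in HAMS than in NP and 0 of 7 higher in HAMSA or HAMSB than in HAMS, and none passed edgeR in these comparisons. Within their diets they were highest in HAMSA library 6 (525 CPM against 306 to 349 in the others of its diet) and in HAMSB libraries 5 and 6 (488 and 457 CPM against 262 and 219), where the Hist2h2bb row was highest too, and lowest in HAMS library 1 (367 CPM), where that row was lowest in its diet. In NP the platelet sum was highest in library 1 (402 CPM), where the Hist2h2bb row was lowest of its diet (16.7 CPM). In HAMS the platelet sum was highest in library 6 (761 CPM) and the row in library 5 (32.0 CPM). No marker of these 5 lists was at 0 in every library, and their part in the histone, S phase and mitosis values was not tested. The 8 B cell markers summed to 11126 to 14051 CPM, so the labelled cell type was met in every library.

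RNAs that lack a poly(A) tail, such as the 7SK RNA Rn7sk and the RNA subunits Rmrp and Rpph1, were taken as a rough sign of what the selection let through. The 21 such RNAs in the table summed to 94.6 CPM in HAMS library 1 and 95.5 CPM in HAMSB library 1, and to between 12.2 and 32.8 CPM in the other 14 libraries. Those 2 libraries had the lowest histone sums of their diets, 102 and 78.3 CPM. Their members with a short annotated 3′ UTR summed to 5.96 and 3 CPM, within the range of their diets (5.42 to 7.33 CPM in HAMS and 2.86 to 4.92 CPM in HAMSB). The part of RNA without a poly(A) tail in the histone counts was not tested. Reads outside annotated exons made up 14.8% ± 0.667 of reads in NP, 13.8% ± 2.25 in HAMS, 11.3% ± 1.09 in HAMSA and 14.7% ± 1.93 in HAMSB (SD, n = 4). HAMSA was lower than NP and than HAMSB by an exact two-sided permutation test (p = 0.0286, the smallest that 4 against 4 can give, adjusted p = 0.171 over 24 comparisons of 4 library measures). The share of unmapped reads gave the same p-values for HAMSA (6.7%) and HAMSB (6.2%) against NP (3.74%). Depth was 15053965 to 30723337 counts in HAMSA libraries and 31707731 to 46206200 in the others.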

How the data were processed

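Per the labels' protocols, poly(A) RNA of negatively selected splenic B cells was made into stranded libraries. Per the submitters' processing notes, STAR, featureCounts of Subread, edgeR and limma were used. Their versions, the genome build and the annotation: not given in the sources used here. A table of raw counts per gene and library, with a counting summary, was deposited by the authors. Per the deposited summary, reads on overlapping genes or mapped to several places were left unassigned.

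Counts were fitted in R 4.3.3 with edgeR 4.0.16 (minimum count 10, 15021 genes, TMM, 1 mean per diet, all 16 libraries, quasi-likelihood F-test, Benjamini-Hochberg, threshold 0.05). Depth was 15053965 to 46206200 counts, and library variation within a diet was 22.1%. Fold changes are log2 with model SE. Correlations and library measures used permutation tests (scipy).

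Members and lists were chosen with earlier results of these data known. Named members are the 3 most abundant of a class, all H1 members tested, every member called and, in a comparison with no call, the 3 with the smallest p. Other lists give up to 4 genes with the smallest p in each comparison among starch diets. Genes outside this rule are said to be chosen after their values were seen. Other settings were DESeq2 1.42.0, limma voom 3.58.1, other scalings and filters, only the 2 diets compared, a replicate block, subsets by label number, a covariate for reads outside exons, and each library left out. Protein sequences and the 7 members outside GENCODE M21 were not used for sequence.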

Additional observations from a re-analysis of the deposited data

Results flagged for a closer look

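In groups of 4 libraries, Dixon's criterion marks a library whose gap to its nearest neighbour is too large a part of the group's range, and chance marks about 1 in 20 groups. Over 96 groups of named members and class sums, 10 were marked. The Hist2h2bb row had 22.25 CPM in HAMSA library 6, against 12.3 to 13.4 in the other HAMSA libraries, and the H2B sum of that library was 48.4 CPM against 30.9 to 33.9. The platelet markers summed to 525 CPM in that library, against 306 to 349 in the other HAMSA libraries, and their part in these values was not tested. Hist3h2a had 1.88 CPM in HAMSB library 5, against 2.68 to 2.82 in the others of its diet. Hist1h2ak was marked in 3 diets: 0.0307 CPM in NP library 1 (others 0.162 to 0.173), 0.129 in HAMS library 6 (others 0.292 to 0.317) and 0.809 in HAMSA library 2 (others 0.254 to 0.333). Hist1h2ai had 0.0614 CPM in NP library 1 (others 0.135 to 0.148). These low values of Hist1h2ak and Hist1h2ai in NP library 1 lie below the level of 3 counts there, 0.0921 CPM. The H1 sum was 23.8 CPM in NP library 5 (others 28.3 to 28.8), the H3 sum 1.86 in HAMSA library 1 (others 2.48 to 2.53) and the H4 sum 16.1 in HAMSB library 6 (others 8.75 to 9.39).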

How the results depend on the processing

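By edgeR 0 members were called in each comparison, and among other settings the count was 0 in 19 of 19 for HAMSA against HAMS and for HAMSB against NP, 17 of 19 for HAMSB against HAMS and HAMSA against HAMSB, 16 of 19 for HAMS and HAMSA against NP, and 22 of 24 for any difference. DESeq2 called 3 in HAMSB against HAMS (Hist1h1c -0.40, Hist1h4i -1.03, Hist2h2ac -1.44), 2 in HAMSA against HAMSB (Hist2h2be -0.65, Hist1h1c 0.39), 2 in HAMS against NP (Hist2h2ac 1.36, Hist3h2a 0.70), 2 in HAMSA against NP (Hist2h2be -0.56, Hist1h1e 1.43) and 4 for any difference. Limma voom called 1 in HAMS against NP (Hist2h2ac 1.55). Within numbers 1 to 4, edgeR called 1 in HAMS against NP (Hist1h3a) and 3 in HAMSA against NP (Hist1h1e 1.67, Hist2h2be -0.57 and Hist2h2bb), where 8.14% and 17.6% of all genes were called. Within numbers 5 and 6 the sign turned for Hist1h1e in HAMSA against NP (-0.14), for Hist1h4i (0.34) and Hist1h1c (0.058) in HAMSB against NP, and for H1fx in HAMSA against HAMSB (-0.23). NP and HAMSA each had a single library there, NP library 5 and HAMSA library 6. The cause of the turned signs was not tested.

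With each library left out in turn, 0 to 1 members were called in HAMSB against HAMS and in HAMSA against HAMSB, and 0 to 2 in HAMSA against NP and for any difference. Log2 fold changes ranged from -1.31 to -0.88 for Hist1h4i in HAMSB against HAMS, from -0.78 to -0.57 for Hist2h2be in HAMSA against HAMSB, and from -0.69 to -0.47 for Hist2h2be and 0.97 to 1.70 for Hist1h1e in HAMSA against NP. The calls came without HAMSB library 6 (Hist1h4i) and without HAMSA library 6 (Hist2h2be, Hist1h1e, and Hist3h2a for any difference). The share of all genes called without these libraries is not given here, so these counts are not set against it.

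Without the most abundant member, sums for NP, HAMS, HAMSA and HAMSB were 70.8, 91.9, 69.9 and 67.0 CPM over all members. They were 0.827, 1.46, 1.87 and 1.25 for H1, 4.83, 8.06, 6.0 and 5.03 for H2A, 25.4, 28.8, 21.1 and 24.5 for H2B, 0.746, 1.34, 1.56 and 0.948 for H3, and 5.06, 7.37, 6.51 and 5.06 for H4. Without Hist2h2bb and Hist1h2al, chosen after seeing the data, the sums over all members were 72.8, 90.9, 77.8 and 67.0 CPM, with the same H2A and H2B values. Class sums under other scalings or with a library left out moved by less than 1 SD.

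Of 15 same-number pairs, 8 had correlated deviations above 0.1 (-0.25 to 0.49, median 0.19, against -0.058 in 81 other pairs). Whether the label numbers mark a pairing of the libraries was not tested. With the replicate block, 0 members were called in each comparison. Over all genes the block gave 163 calls against 252 in HAMSB against HAMS, 2 against 117 in HAMSA against HAMSB, 378 against 650 in HAMS against NP, and 0 against 212 in HAMSA against NP. Low counts limit 40 members, which were too low to test.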
